A study of Mus musculus with 82 samples.

Results

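The genes described here code for proteins of the provisional and matricellular matrix and for their hyaluronan-related partners, in primary aortic vascular smooth muscle cells (aVSMC) of C57BL/6 mice. They are fibronectin (Fn1), tenascin C (Tnc), thrombospondins (Thbs1, Thbs2), periostin (Postn), Sparc, versican (Vcan), hyaluronan synthases (Has1, Has2) and the hyaluronan receptor Cd44. They are a list of names, 10 of the 55401 genes counted. All 10 had counts and passed the low-count filter after 24 h and after 48 h, as did 14528 genes in all.

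RNA was sequenced from aVSMC that were grown with serum and EGF, kept for 24 h in medium without serum or supplements, and then incubated with stimuli in that medium. EGF at 10 µg/L activates EGFR, AngII at 10 nM activates AT1R, and U46619 at 1 µM, a stable thromboxane analog, activates the thromboxane receptor TP. The 24 h experiment had 7 groups, with 1 culture from each of 6 mice (here mouse 1 to 6) in each. They were control, each of the 3 substances alone, EGF+AngII, EGF+U46619 and all 3 substances together. The 48 h experiment was made in 2 batches, both with control and EGF (n = 10 in all). The EGF/U46619 batch (culture sets 1 to 5) added U46619 and EGF+U46619, and the EGF/AngII batch (culture sets 1, 2, 4, 5 and 6) added AngII and EGF+AngII, n = 5 each. Control cultures received the same medium without stimuli and serve every comparison against control at their time point, so these comparisons share them.

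After an injury, vessels lay down a provisional matrix that is rich in fibronectin, versican and hyaluronan and that smooth muscle cells use to attach, move and divide. Matricellular proteins such as thrombospondins, tenascin C, periostin and Sparc do not serve mainly as scaffold, but tune how cells bind to matrix and how growth factors reach them. Hyaluronan is made at the plasma membrane by the hyaluronan synthases, is organized by versican, and is bound by Cd44 on the cell surface.

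All 10 genes are protein-coding and the counts cover their exons. In GRCm38 they lie at chr1:71585520-71653200 (Fn1), chr4:63959785-64047015 (Tnc), chr2:118111876-118127133 (Thbs1), chr17:14665500-14694235 (Thbs2), chr3:54361109-54391037 (Postn), chr11:55394500-55423183 (Sparc), chr13:89655312-89742509 (Vcan), chr17:17843323-17855205 (Has1), chr15:56665627-56694539 (Has2) and chr2:102811141-102901665 (Cd44). Thbs1 and Postn are on the plus strand and the other genes on the minus strand.

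RefSeq promoter windows were at hand for 7 of the 10 genes, with 9 start sites. The 250 bases before the start are printed for Cd44 and Tnc, which rose with U46619, and for Thbs2, which fell (values below), 5′ to 3′ on the strand of the gene. They span chr2:102901666-102901915, chr4:64046937-64047186 and chr17:14694263-14694512 of GRCm38.p6, all on the minus strand. Capitals mark TATAAA in either orientation.
Cd44: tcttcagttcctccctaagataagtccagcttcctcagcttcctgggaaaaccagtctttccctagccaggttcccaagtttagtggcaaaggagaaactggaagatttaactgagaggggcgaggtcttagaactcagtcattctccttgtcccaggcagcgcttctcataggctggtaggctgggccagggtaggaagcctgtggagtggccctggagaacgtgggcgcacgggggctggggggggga
Tnc: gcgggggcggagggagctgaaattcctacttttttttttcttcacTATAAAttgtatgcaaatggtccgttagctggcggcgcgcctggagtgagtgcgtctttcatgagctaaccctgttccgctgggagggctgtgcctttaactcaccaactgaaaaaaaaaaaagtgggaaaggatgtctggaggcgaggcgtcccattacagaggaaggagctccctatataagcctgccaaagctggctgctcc
Thbs2: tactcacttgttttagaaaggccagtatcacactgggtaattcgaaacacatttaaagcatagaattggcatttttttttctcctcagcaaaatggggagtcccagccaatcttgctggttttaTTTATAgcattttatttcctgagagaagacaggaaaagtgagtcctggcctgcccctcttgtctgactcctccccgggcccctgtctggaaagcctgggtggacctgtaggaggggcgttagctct

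Both strands were searched for AP-1 (TGANTCA), TEAD (GGAATG) and the CArG box bound by SRF. None of the 9 windows (0) held any of these letters, against 6.75%, 12.6% and 1.47% of 32851 promoter windows of the same length. TATAAA, added after the first search, was in 4 of the 9 windows and in 12.4% of all. The 2 windows of Tnc overlap and share 1 match. In Tnc it lies 205 to 200 bases before the start printed above, in Thbs2 126 to 121 bases before it on the opposite strand, and in Postn 26 to 21 bases before 1 of its starts. Cd44, Sparc, Vcan and Has1 had none of the 4 motifs.

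The level of a gene is given in FPM, edgeR's CPM, in which the count is divided by a library size scaled with TMM. Library totals were 16483529 to 20818809 counts after 24 h and 19936925 to 33916114 after 48 h. DEG had an FDR (Benjamini-Hochberg adjusted p over all genes) under 0.05 both in edgeR's quasi-likelihood test and in DESeq2's Wald test, and their mean reached 5 FPM in either compared group. Of the smooth muscle markers, Acta2 had a median of 2441 FPM in the 24 h controls and Myh11 of 43.6 FPM, while Myocd stood at a median of 0.415 FPM. Of 8 leukocyte and macrophage markers, Ptprc, Adgre1, Itgam and Fcgr1 were at 0 in those controls, and the summed 8 had 21.9 to 117 FPM there. With U46619 the sum was 24.5 to 81.0 FPM, with Csf1r higher and Lyz2 and Cd14 lower. After 48 h, 1 control library (set 4 of the EGF/AngII batch) stood apart from its set, as given with the 48 h values. RNA of the whole culture was measured, so fewer cells of a type and less RNA per cell cannot be told apart.

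In unstimulated aVSMC after 24 h, the 10 genes differed widely in level. Per kilobase of exon, Sparc, a collagen-binding glycoprotein, came first with a mean of 1605 FPM per kb, followed by Fn1, the main adhesive glycoprotein of the provisional matrix, with 513, and Thbs1, an activator of latent TGF-beta, with 337. Thbs2, a related thrombospondin that restrains vessel growth, had 146, Postn, which binds collagen and integrins, 70.9, and Tnc, an anti-adhesive hexamer, 19.1. Cd44 followed with 11.0, Vcan, the large hyaluronan-binding proteoglycan, with 3.20, Has2 with 1.10 and Has1 with 0.112 FPM per kb. Sparc exceeded Fn1, Thbs2 exceeded Postn and Cd44 exceeded Vcan in 6 of 6 cultures, whereas Postn exceeded Tnc, and Has2 exceeded Has1, in 4 of 6.

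Mice differed far more in some of these genes than in others. In the 6 controls after 24 h, the highest value was 3.22 times the lowest for Fn1, 2.67 times for Sparc and 2.30 times for Thbs1, but 79.4 times for Postn, 20.8 times for Tnc and 242 times for Has2. The ratio for Has2 rests on 1 count in its lowest library, so its size is uncertain. Postn was measured at 16.2 FPM in mouse 4 and at 1285 FPM in mouse 1. Has2 stood at 0.06 to 1.00 FPM in mice 1 to 4 and at 11.1 and 14.5 FPM in mice 5 and 6. The plot of all 10 genes by mouse shows these differences beside those between incubations.

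**Figure D1:**
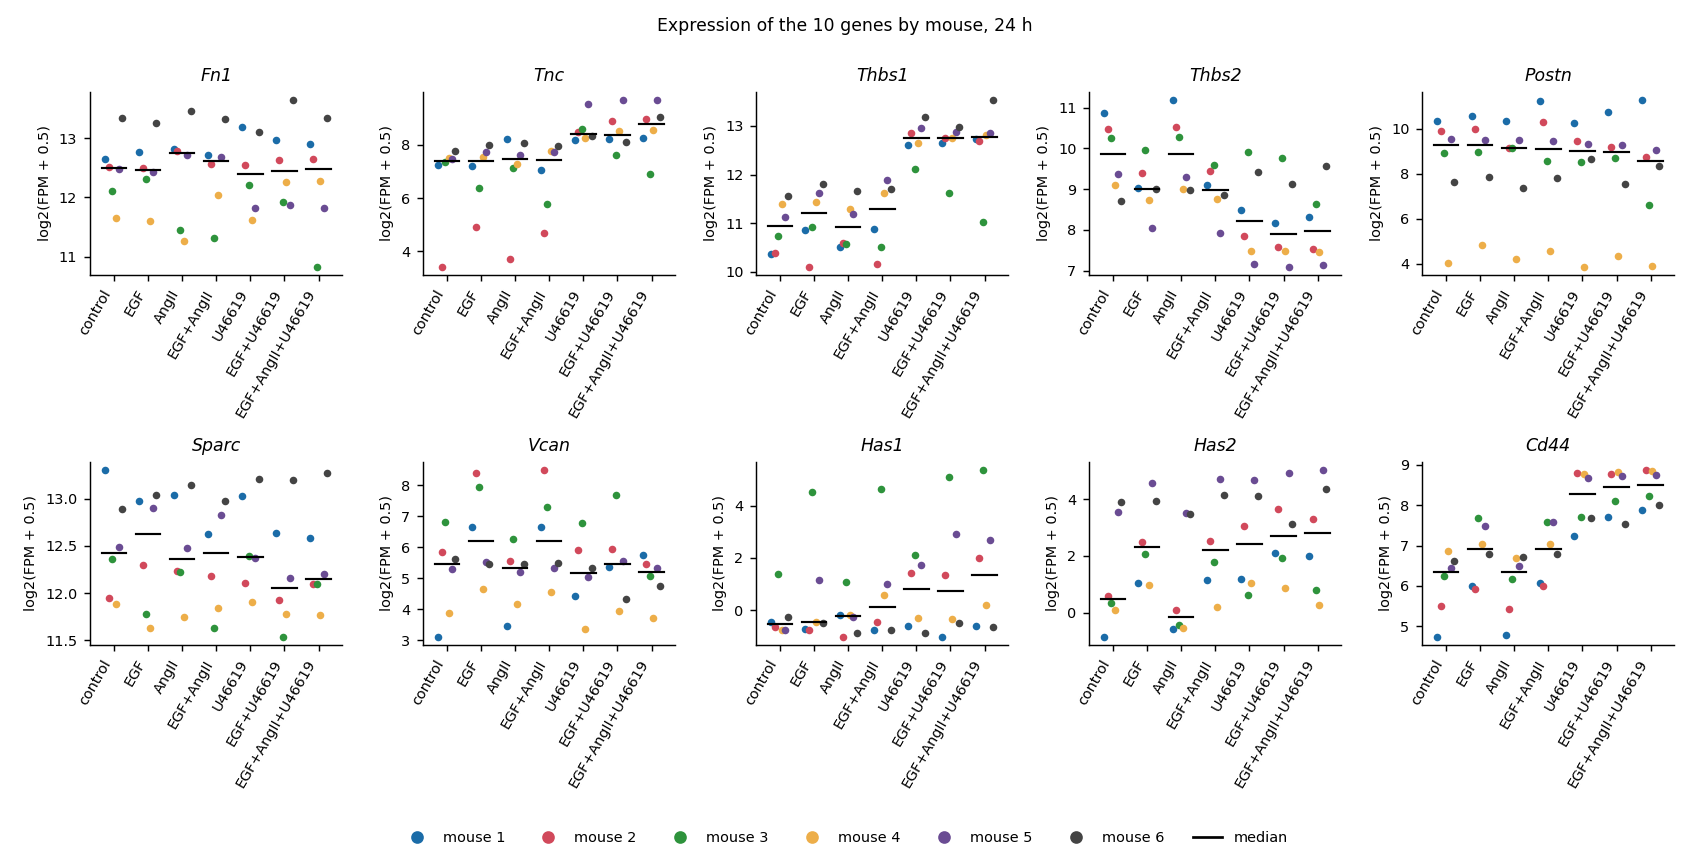
Expression of the 10 genes after 24 h, 1 panel per gene, as log2(FPM + 0.5) on the vertical axis for the 7 groups; each point is 1 culture, coloured by mouse, and the bar is the median of 6. Thbs1, Tnc and Cd44 are higher in the 3 groups with U46619, Thbs2 is lower there in every mouse except mouse 6, and Postn of mouse 4 lies far below the other mice in every group.

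After 24 h incubation with U46619, 5 of the 10 genes were DEG, beside 26.8% of the 14528 genes tested. Thbs1, Tnc, Has2 and Cd44 rose (higher in 12.9% of all genes) and Thbs2 fell (lower in 13.9%). The median log2-fold change of the 10 genes was 0.68, against −0.06 over all genes tested.

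Thbs1 ranged from 1315 to 3029 FPM with a median of 1966 in control, and from 4461 to 9356 FPM with a median of 6902 in U46619. Every culture with U46619 lay above every control. The increase was 3.48-fold (log2-fold change with its standard error 1.80 ± 0.21, edgeR's FDR = 8.41e-07), in 6 of 6 mice, and no mouse that was left out ended the call. Per kilobase, Thbs1 with a mean of 1146 FPM exceeded Fn1 with 508 in 6 of 6 cultures with U46619, whereas Fn1 exceeded Thbs1 in 5 of 6 controls.

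Tnc was measured at 10.3 to 214 FPM with a median of 168.6 in control and at 290 to 739 FPM with a median of 339 in U46619, again without overlap. It rose 3.02-fold (log2-fold change 1.60 ± 0.50, edgeR's FDR = 0.0128) and was higher in 6 of 6 mice. The steps were uneven, from 10.3 to 360 FPM in mouse 2 and from 149.2 to 290 FPM in mouse 1. Without mouse 5, which had the 739 FPM, the log2-fold change was 1.497 and the call was lost (FDR = 0.0624 from edgeR).

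Thbs2 went the other way. It was measured in control at 1864, 1434, 1219, 547, 660 and 420 FPM in mice 1 to 6, and in U46619 at 361, 229, 970, 179.1, 142 and 687 FPM in the same order. The groups overlapped, since Thbs2 was lower in mice 1 to 5 but higher in mouse 6. The decrease was 2.79-fold (log2-fold change −1.48 ± 0.36, edgeR's FDR = 0.00198).

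Mouse 6, in which Thbs2 was not lower, differed from the other mice in markers of other cell types. In it, the summed endothelial markers (8 genes, of which Cdh5 was at 0) were at 2054 to 2585 FPM over its 7 cultures, against 2.24 to 761 FPM in the other mice, and the summed adipocyte markers at 191 to 2833 FPM against at most 121 FPM. With U46619, 0 of 7 tested endothelial markers were DEG and 1 of 4 adipocyte markers fell. Of 8 adventitial fibroblast markers, 6 fell with U46619, and their sum was 1841 to 6475 FPM in control and 1446 to 2897 FPM in U46619, with none of the 8 at 0. The smooth muscle sum (9 genes, 4 of them higher) was 2131 to 8928 FPM in control and 5891 to 21344 FPM in U46619. The part of these markers in the results for Thbs2 and the other DEG was not tested.

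As the thrombospondins moved apart, their ratio within a culture changed. The ratio of Thbs1 to Thbs2 per kilobase had a median of 2.75 in control (0.813 to 8.32), 2.85 in AngII, 5.85 in EGF, 28.5 in U46619 (5.30 to 64.1), 33.7 in EGF+U46619 and 33.1 in EGF+AngII+U46619. The highest control and the lowest U46619 cultures thus overlapped. The lines within each mouse show that Thbs1 rose in all mice and that mice 3 and 6 kept the highest Thbs2 with U46619.

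**Figure D2:**
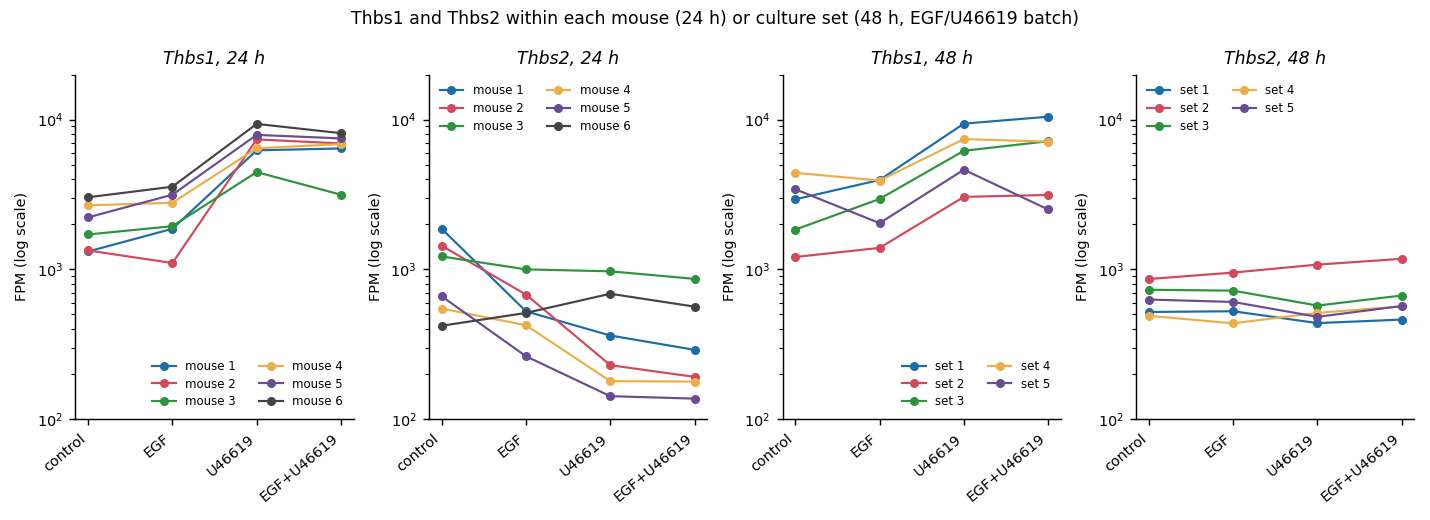
Thbs1 and Thbs2 in FPM on a log axis in control, EGF, U46619 and EGF+U46619, with lines joining the cultures of 1 mouse (24 h, left pair of panels) or 1 of the 5 sets treated with U46619 for 48 h (right pair). Thbs1 is higher than in control with U46619 alone at both times, and with EGF+U46619 in 6 of 6 mice and 4 of 5 sets. Thbs2 is lower in mice 1 to 5 after 24 h and shows no common direction in the 5 sets after 48 h.

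Fn1, Sparc and Postn, highly expressed members of the same matrix, did not pass with U46619 after 24 h. Fn1 had a median of 5785 FPM (3214 to 10344) in control and 5357 FPM (3153 to 9319) in U46619, a log2-fold change of −0.01 with a 95% interval from −0.43 to 0.40, higher in 3 of 6 mice. Sparc had medians of 5506 and 5353 FPM and a log2-fold change of 0.02 (interval −0.28 to 0.31), the narrowest interval of the 10 genes. For Postn, with medians of 621 and 521 FPM, it was −0.03 (−0.58 to 0.52), lower in 5 of 6 mice.

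On the hyaluronan side, Cd44 showed the largest increase of the DEG. It ranged from 26.4 to 116 FPM (median 80.7) in control and from 150 to 446 FPM (median 308) in U46619, without overlap. The increase was 4.29-fold (log2-fold change 2.101 ± 0.28, edgeR's FDR = 4.56e-06), in 6 of 6 mice.

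Has2, the main hyaluronan synthase of mesenchymal cells, was low in most mice. It was measured at 0.06, 1.00, 0.78, 0.58, 11.1 and 14.5 FPM in the controls of mice 1 to 6, and at 1.80, 7.84, 1.06, 1.58, 25.1 and 16.9 FPM with U46619. The groups overlapped widely although Has2 was higher in 6 of 6 mice. The increase was 2.53-fold (log2-fold change 1.34 ± 0.44, edgeR's FDR = 0.0177). It was no longer called without mouse 1, 2 or 5 (log2-fold changes 1.15, 1.04 and 1.43). Vcan, with medians of 43.5 and 35.9 FPM, had a log2-fold change of −0.10 (interval −0.93 to 0.73).

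Has1, another hyaluronan synthase, was close to absent in most cultures, with 2 to 41 counts per library in the 24 h controls. It reached 22.6 FPM with EGF, 24.5 with EGF+AngII, 33.8 with EGF+U46619 and 40.6 with EGF+AngII+U46619 in mouse 3, and 7.00 FPM with EGF+U46619 in mouse 5. With U46619 the log2-fold change was 2.06 (interval 0.22 to 3.91, edgeR's FDR = 0.0756), higher in 4 of 6 mice and not a DEG.

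After 24 h, the highest Has1 values were found in mice with mesothelial marker RNA. The sum of Msln, Upk3b, Wt1 and Lrrn4 was 529 to 946 FPM in the 7 cultures of mouse 3 and 261 to 360 FPM in those of mouse 5, against at most 2.95 FPM in the other mice. Yet the control of mouse 5 had the lowest Has1 of the 6 controls, at 0.0945 FPM. Of these 4 markers, 0 were DEG with U46619, and 1 fell with EGF+U46619 and 1 with EGF+AngII+U46619. In mouse 2, whose sum was at most 0.756 FPM, Has1 went from 0.150 FPM in control to 2.19, 2.03 and 3.47 FPM in U46619, EGF+U46619 and EGF+AngII+U46619. After 48 h, set 5 of the EGF/U46619 batch (27.6 to 72.7 FPM) and set 6 of the EGF/AngII batch (88.8 to 164.2 FPM) had the highest sums, and Has1 there reached 11.6 and 5.25 FPM. Set 2 of the EGF/U46619 batch had a sum of only 3.48 to 4.91 FPM, yet its Has1 reached 6.92 FPM, above that of set 6. The part of these markers in the Has1 values was not tested.

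**Figure D3:**
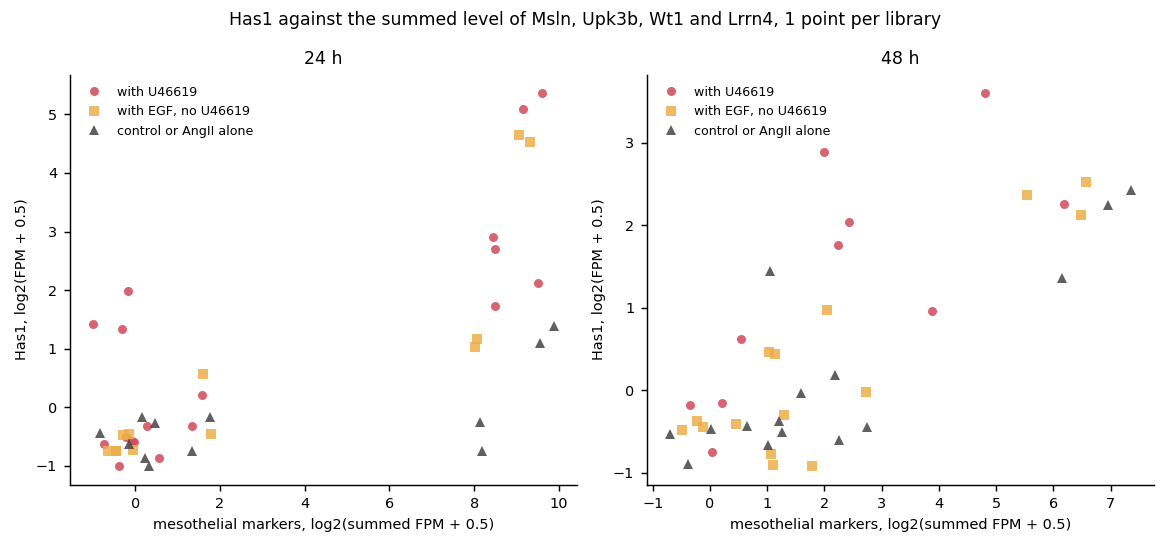
Has1 against the summed mesothelial markers Msln, Upk3b, Wt1 and Lrrn4, both as log2(FPM + 0.5), with 1 point per culture after 24 h (left, 42 cultures) and 48 h (right, 40 cultures). The cultures of mice 3 and 5 form the right-hand group after 24 h, and within each of these mice the points with U46619 or EGF lie above those with neither. The 3 U46619 points of mouse 2 stand above their neighbours at the left.

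With EGF alone for 24 h, 0 of the 10 genes were DEG, beside 0.0275% of all genes, while 5 had an unadjusted p under 0.05 in edgeR and 4 in DESeq2, as did 2579 and 2772 of the 14528 genes. DESeq2 alone passed 1, Has2, and 1.86% of all genes. With the same DEG criteria, the paper reported far more DEG for EGF alone at this time, and more again with AngII added. The reason for this gap was not tested. The small share called here by both tools therefore does not show that EGF alone had almost no effect. Vcan was measured in control at 8.19, 57.3, 111, 14.3, 38.5 and 48.4 FPM in mice 1 to 6 and with EGF at 102, 340, 245, 24.6, 46.1 and 44.0 FPM. It was thus far higher in mice 1 to 3 and close to its control in mice 5 and 6, a log2-fold change of 1.31 ± 0.42 that did not pass (FDR = 0.113 from edgeR, 0.0553 from DESeq2).

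Has2 and Cd44 were higher with EGF in 6 of 6 mice, and Thbs2 lower in 5 of 6. Their log2-fold changes were 1.41 (FDR = 0.11 from edgeR), 0.77 (FDR = 0.133) and −0.90 (FDR = 0.167). Without mouse 6, Vcan (1.66, edgeR's FDR = 0.0481) and Has2 (1.95, edgeR's FDR = 0.0275) were DEG, beside 2.33% of all genes. Tnc and Thbs1 had log2-fold changes of −0.04 (interval −1.02 to 0.93) and 0.21 (−0.20 to 0.63).

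AngII alone gave 0 DEG among the 10 genes and 0% of all genes after 24 h, and 0 of the 10 had an unadjusted p under 0.05 with edgeR or DESeq2, beside 68 and 79 of all genes. Its log2-fold changes lay between −0.49 for Has2 and 0.22 for Tnc. EGF+AngII gave 0 of 10, beside 3.13% of all genes, with 5 and 4 genes at an unadjusted p under 0.05 in edgeR and DESeq2, as were 3606 and 3847 of all genes. DESeq2 alone passed 4, namely Thbs2 (−0.96), Vcan (1.21), Has2 (1.26) and Cd44 (0.78), beside 9.12% of all genes. Without mouse 6 both tools passed the same 4 genes, beside 7.67% of all. Set against EGF alone, EGF+AngII called 0 of 10 and 0% of all genes. At an unadjusted p under 0.05, edgeR and DESeq2 each gave 0 of the 10, beside 65 and 79 of all genes.

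With EGF+U46619, 5 of the 10 genes were DEG after 24 h, beside 32.1% of all genes. Thbs1 (log2-fold change 1.70), Tnc (1.60), Has2 (1.83) and Cd44 (2.24) rose, where 16.3% of all genes were higher, and Thbs2 (−1.65) fell, where 15.8% were lower. All 8 adventitial fibroblast markers and 3 of 4 adipocyte markers also fell, and with all 3 substances 7 and 2 did. Of 9 smooth muscle markers, 3 rose and 1 fell, and with all 3 substances 4 and 1 did. The part of these markers in the Thbs2 result was not tested. Thbs1 (3150 to 8117 FPM) and Cd44 (186.3 to 454 FPM) did not overlap with control. Tnc was no longer called without mouse 5 (1.46, edgeR's FDR = 0.0631). Has1 (2.97) passed in edgeR only (FDR = 0.00683, and 0.109 from DESeq2).

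With EGF+AngII+U46619, 6 genes were DEG, beside 33.4% of all genes. These were Thbs1 (1.74), Tnc (1.68), Has1 (3.28), Has2 (1.59), Cd44 (2.37) and Thbs2 (−1.73), where 17.7% of all genes were higher and 15.7% lower. Cd44 did not overlap with control (235 to 469 FPM). The Has1 call was lost when mouse 2, 3, 4 or 5 was left out (log2-fold changes 3.02, 2.58, 3.34 and 2.67). Adding AngII to EGF+U46619 gave 0 of 10 and 0% of all genes. At an unadjusted p under 0.05 in edgeR and DESeq2 it gave 0 of the 10, beside 778 and 1031 of all genes.

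**Figure D4:**
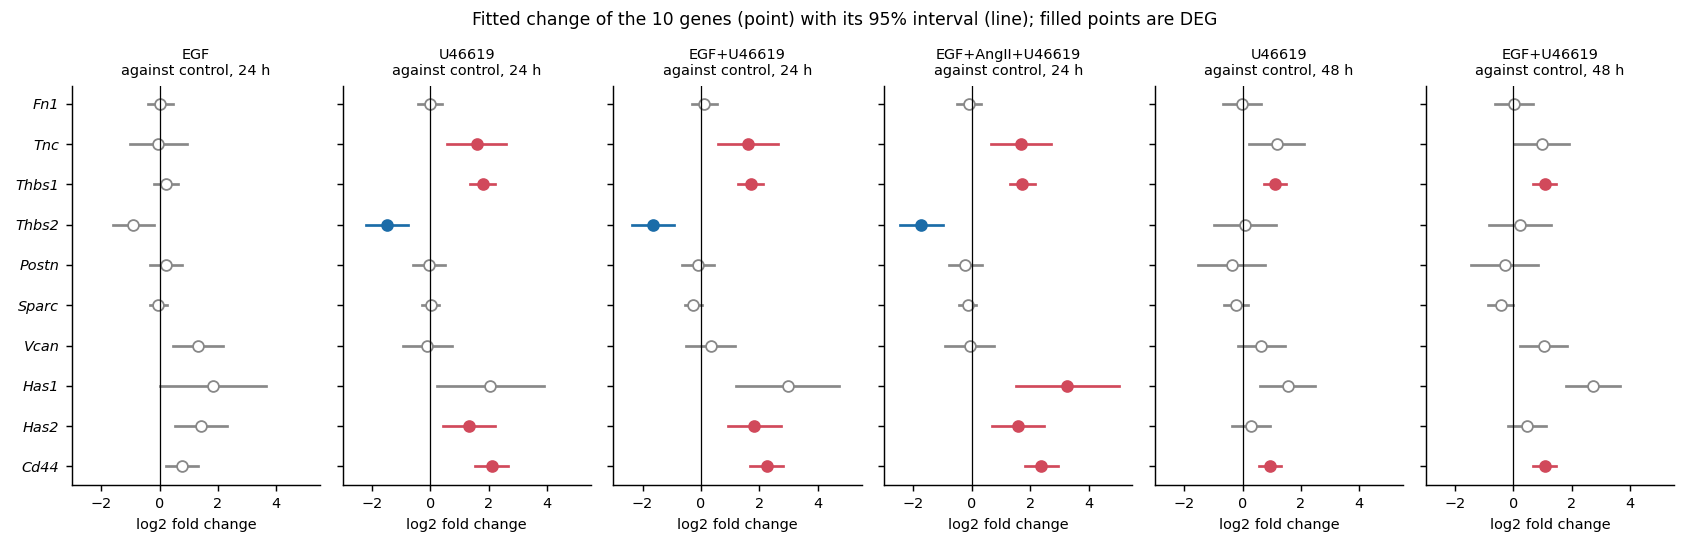
Log2-fold changes of the 10 genes against control from edgeR, with 95% intervals as lines, for EGF and the 3 incubations with U46619 after 24 h and the 2 with U46619 after 48 h. Filled points are DEG, red when higher and blue when lower. Thbs1 and Cd44 are filled in all 5 panels with U46619, Thbs2 only in those of 24 h, and the intervals of Fn1 and Sparc span 0 or nearly reach it throughout.

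The combination was also compared with each single stimulus. Against EGF, EGF+U46619 changed 3 genes after 24 h, beside 12.9% of all genes, all 3 upward (6.74% of all genes were higher and 6.13% lower). Tnc rose by a log2-fold change of 1.65, Thbs1 by 1.48 and Cd44 by 1.47, each in 6 of 6 mice (FDR = 0.0214, 2.69e-05 and 0.000514 from edgeR), and Tnc was no longer called without mouse 4 or 5. Vcan was lower with the combination in 5 of 6 mice (73.8 FPM with EGF and 43.6 FPM with EGF+U46619 at the median; −0.97, interval −1.81 to −0.14), which did not pass (FDR = 0.104 from edgeR). Thbs2 (−0.75) passed only without mouse 6 (−0.96, edgeR's FDR = 0.0215).

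Against U46619, EGF+U46619 gave 0 of 10 and 0% of all genes. In edgeR and DESeq2, 0 and 1 of the 10 had an unadjusted p under 0.05, beside 387 and 461 of all genes. The 1 gene was Sparc, lower with the combination in 6 of 6 mice (−0.28, interval −0.58 to 0.01). The interaction of EGF and U46619 measures the departure of the combination from the sum of the single log2-fold changes. It thus refers to multiplied folds, whereas the paper added linear fold changes for its expected values. The interaction likewise gave 0 of 10 and 0% of all genes. Neither edgeR nor DESeq2 gave any of the 10 (0) at an unadjusted p under 0.05, beside 450 and 538 of all genes. For Cd44 it was −0.63 (interval −1.38 to 0.13), for Has2 −0.92 (−2.13 to 0.29) and for Vcan −0.88 (−2.05 to 0.30), intervals that reach far from 0.

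After 48 h incubation with U46619, 2 of the 10 genes were DEG, beside 4.03% of all genes, and both rose (2.48% were higher and 1.55% lower). Thbs1 was measured at 2934, 1209, 1843, 4409 and 3426 FPM in the controls of sets 1 to 5 of the EGF/U46619 batch and at 9398, 3048, 6191, 7413 and 4628 FPM with U46619. It was higher in 5 of 5 sets, 2.17-fold over all controls (log2-fold change 1.12 ± 0.19, edgeR's FDR = 0.0012). Cd44 was measured at 107, 136, 86.5, 180 and 107 FPM in these controls and at 188.8, 209, 262, 337 and 175.9 FPM with U46619. This was also an increase in 5 of 5 sets, 1.92-fold (0.94 ± 0.19, edgeR's FDR = 0.00393), and for both genes the groups overlapped.

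Tnc was higher with U46619 in 5 of 5 sets as well, at 236, 130, 598, 388 and 1278 FPM against 185.02, 80.8, 222, 227 and 679 FPM. Its log2-fold change of 1.17 ± 0.47 did not pass with the mouse numbers of the labels as a term (FDR = 0.137 from edgeR). With the culture set as the replicate block it did, at 0.75 (FDR = 0.00296 from edgeR), beside 10.6% of all genes. It also did in the EGF/U46619 batch alone, at 0.85 (FDR = 0.00106), beside 21.4% of all genes. In that batch alone Postn also passed, at −0.56 (FDR = 0.0183 from edgeR), lower in 5 of 5 sets. Fn1 was higher in 5 of 5 sets, although the fit, which uses the controls of both batches, put it at −0.03 (interval −0.68 to 0.62).

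Thbs2, which had fallen after 24 h, was measured after 48 h at 519, 861, 730, 489 and 628 FPM in the controls of sets 1 to 5 and at 437, 1075, 573, 512 and 481 FPM with U46619. It was lower in 3 of 5 sets, with a log2-fold change of 0.08 (interval −0.99 to 1.15). The control library of set 4 of the EGF/AngII batch stood apart, with Thbs2 at 55.3 FPM against 572 to 920 FPM in the other cultures of its set and Postn at 135 against 519 to 552 FPM. Its summed endothelial markers, 2380 FPM, were the highest of its set (lowest 317 FPM), and its adventitial markers, 1168 FPM, the lowest (highest 6874 FPM). Its ratio of Thbs1 to Thbs2 was 53.3, against 2.80 to 4.90 in its set and 36.1 to 60.1 in set 2 of the same batch. Whether it belongs to its set is in doubt. Without that library, no call among the 10 genes changed at 48 h.

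With EGF+U46619 after 48 h, 2 of the 10 genes were DEG, beside 6.85% of all genes, again Thbs1 (1.08) and Cd44 (1.08), both higher (3.84% of all genes were higher and 3.01% lower). Cd44 was higher in 5 of 5 sets, but Thbs1 in 4 of 5. Against EGF alone, the same 2 genes were called, Thbs1 at 1.15 and Cd44 at 0.81, beside 4.81% of all genes (2.62% higher, 2.2% lower), and Cd44 did not overlap between these groups (193 to 333 FPM against 89.1 to 188.9 FPM). Without set 3 of the EGF/U46619 batch, the Cd44 call against EGF was lost (0.69, edgeR's FDR = 0.0756). With the culture set as the replicate block, Tnc was called as well in both comparisons (0.66 and 0.87), and Sparc, lower in 5 of 5 sets, against control (−0.44, edgeR's FDR = 0.014). Of all genes, 14.9% and 13.1% were called with this block. In the EGF/U46619 batch alone, Postn (−0.49 and −0.66) and Sparc (−0.46 and −0.33) were called lower in both, beside 25.9% and 13.9% of all genes.

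Has1 had the largest fitted change after 48 h. With EGF+U46619 it stood at 0.381, 6.92, 2.88, 1.05 and 11.6 FPM in sets 1 to 5, against 0.192, 0.633, 0.235, 0.134 and 2.08 FPM in their controls, higher in 5 of 5 sets (log2-fold change 2.73 ± 0.45, edgeR's FDR = 0.000341). Its mean was under the minimum of 5 FPM, so it was not a DEG. Vcan (1.03, edgeR's FDR = 0.1) was called only without set 1 of this batch (1.34, edgeR's FDR = 0.049), and Has1 passed every criterion without set 1 or set 4.

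**Figure D5:**
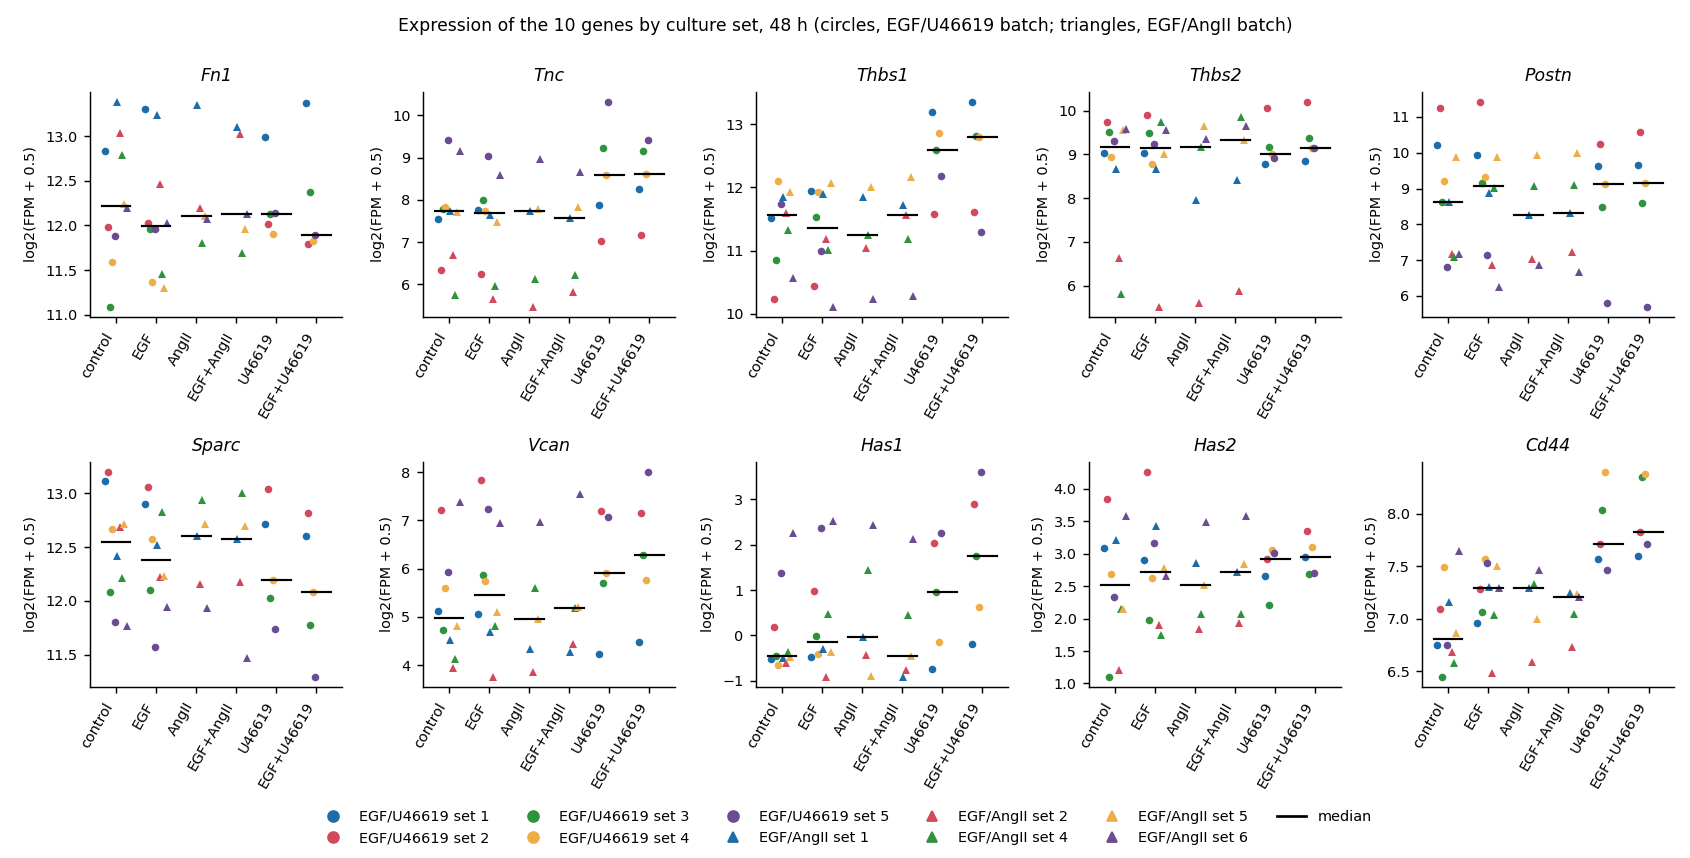
Expression of the 10 genes after 48 h as log2(FPM + 0.5) for the 6 groups, with 1 point per culture (circles, EGF/U46619 batch; triangles, EGF/AngII batch), coloured by culture set, and the median as a bar. Thbs1 and Cd44 are higher in both groups with U46619, Tnc and Has1 differ more between sets than between most groups, and the control triangle of set 4 lies far below its set in Thbs2.

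EGF, AngII and EGF+AngII gave 0 of 10 genes after 48 h, beside 0% of all genes in each, and 0 of the 10 had an unadjusted p under 0.05 in edgeR or DESeq2. Between EGF+U46619 and U46619, 0 of 10 were called (0% of all genes), and 1 gene, Has1, was under 0.05 in edgeR and DESeq2 without adjustment (1.19, interval 0.17 to 2.20). Of all genes, 54 and 59 were. The interaction after 48 h gave 0 of 10 and 0% of all genes, and edgeR and DESeq2 gave 0 of the 10 without adjustment, beside 37 and 43 of all genes.

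The size of the change within a mouse or culture set was compared between 24 h (n = 6 mice) and 48 h (n = 5 culture sets). Exact two-sided permutation tests were made on log2(FPM + 0.5), for 10 genes and 2 incubations. Each set counted as independent in them, although sets 1 and 4 of the EGF/U46619 batch carry the same mouse number in the labels. Cd44 changed by 2.07 ± 0.79 (SD) after 24 h and by 0.93 ± 0.39 after 48 h with U46619 (exact p = 0.013, adjusted p = 0.216 over 20 tests). With EGF+U46619 it changed by 2.21 ± 0.83 and 1.07 ± 0.48 (exact p = 0.0216, adjusted p = 0.216). Thbs2 changed with EGF+U46619 by −1.59 ± 1.31 and 0.04 ± 0.27 (exact p = 0.0346, adjusted p = 0.231). None of the 20 differences (0) passed after adjustment. The 24 and 48 h cultures came from different mice and batches, so time and batch cannot be told apart.

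Matricellular relatives of these genes (22 with counts, 17 past the filter) split in both directions with U46619 after 24 h, with 4 higher, 7 lower and a median log2-fold change of −0.84, where 12.9% of all genes were higher, 13.9% lower and the median was −0.06. The largest changes were those of Fbln7 (−2.93), Ccn2 (2.75), an integrin-binding CCN protein, Tnxb (−2.67), a tenascin, Spp1 (1.93), osteopontin, Fbln1 (−1.68) and Ccn4 (1.68). RNA of Fbln7, Fbln1 and Tnxb thus fell while that of Ccn2, Ccn4 and Spp1 rose. With EGF+U46619, 4 were higher and 10 lower (16.3% and 15.8% of all genes), with a median of −1.21, and with EGF+AngII+U46619 4 and 10 (17.7% and 15.7%), with a median of −1.41. EGF alone changed only Fbln7 (−1.88), beside 0.0275% of all genes. EGF+AngII changed Fbln7 (−1.997) and Spp1 (2.54), beside 3.13% of all genes.

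Of the partners of hyaluronan and versican (26 genes, 21 with counts, 17 past the filter), 4 rose and 3 fell with U46619 after 24 h, beside the 12.9% and 13.9% of all genes, and the median was 0.28. Versican-cleaving proteases fell, namely Adamts5 (−1.45), Adamts1 (−0.92) and Adamts9 (−0.75). The genes that rose were Cemip (1.07) and Cemip2 (0.75), involved in hyaluronan breakdown, Gfpt2 (0.82) and Ugdh (0.74), which supply its sugar precursors. With EGF+U46619 the counts were 5 and 3 (16.3% and 15.8% of all genes), with EGF+AngII+U46619 3 and 3 (17.7% and 15.7%).

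Of the partners and receptors of fibronectin and the thrombospondins (16 genes, 14 past the filter), 4 rose and 1 fell with U46619 after 24 h, beside the same 12.9% and 13.9%, with a median of 0.07. Itga5, the alpha subunit of the classical fibronectin receptor, rose by 1.83, the crosslinker Tgm2 by 1.78, the co-receptor Sdc4 by 0.93 and Itgav by 0.83. Cd47, a thrombospondin receptor, fell by 0.40 on the log2 scale. With EGF+U46619 the counts were 5 higher and 3 lower (16.3% and 15.8% of all genes), with all 3 substances 4 and 2 (17.7% and 15.7%).

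After 48 h, U46619 changed 1 gene of each of these lists (4.03% of all genes), Fbln7 (−2.55), Ugdh (0.54) and Itgav (0.65). With EGF+U46619 (6.85% of all genes), 3 relatives were called, Spp1 (3.65), Fbln7 (−2.81) and Ccn3 (−1.80). Called as well were 3 hyaluronan partners, Gfpt2 (1.02), Adamts5 (−0.94) and Ugdh (0.73), and Itgav (0.65). EGF and AngII alone and EGF+AngII called 0 genes of the 3 lists after 48 h, and AngII alone 0 after 24 h.

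Across the 42 cultures of 24 h, after centring on each mouse, the genes with the pattern most like that of each DEG were named by Pearson's r, as a description. The cultures share 6 mice. Thbs1 was most like Uck2 (r = 0.97), and Tnc like Wdfy1 and Cux1 (0.88 each). Thbs2 was most like Enpp5 (0.94) and Bmf (0.92), Has2 like Wdhd1 and Naa50 (0.93 each) and Has1 like Errfi1 (0.84) and Hmga1b (0.83). For Cd44 they were Pgk1.rs7 and Gm5537 (0.98 each). Pgk1.rs7 is a copy that can take counts from its parent gene, since reads aligning to several places were counted. Among the 10 genes themselves, Thbs1 and Cd44 were most alike (r = 0.92), and Thbs2 and Cd44 most opposed (r = −0.89), whereas r of Fn1 with the others lay between −0.32 (Has1) and 0.26 (Postn).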

How the data were processed

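The authors aligned paired-end reads of poly(A) RNA to mm10 with HISAT2 2.1.0 and used featureCounts on exons, where a read with several alignments is counted too. The files hold raw counts per gene as deposited. All 7075 genes of chromosomes 9, X, Y and MT are listed at 0. Counts were tested with edgeR 4.0.16 (quasi-likelihood) and DESeq2 1.42.0 (Wald) in R 4.3.3. Each had 1 fit per time point with the mouse and treatment as terms, and FDR over all genes it tested. For edgeR, genes were filtered with filterByExpr and library sizes scaled by TMM. DESeq2 took all genes with a count, its own size factors and its independent filtering. Standard errors and intervals are those of edgeR's test. FPM came from edgeR and was summarized with pandas 2.3.3, permutation tests came from SciPy 1.17.1 and figures from Matplotlib 3.10.9. The scripts were tested on simulated data. Gene positions (GRCm38) come from GENCODE and promoter windows from RefSeq.

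The 10 genes, the related and marker lists and the naming rule (all 10; at most 6 related DEG per list by size; the 2 most similar genes per DEG of 24 h) were chosen with earlier results of these data known. A similar gene is not reported here.

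Mouse numbers come from the labels, and the methods state a different mouse per replicate, while the labels give 5 mice for 10 culture sets at 48 h. Sets 1 and 4 of the EGF/U46619 batch share a mouse number there, so 5 of 5 sets are not 5 mice by the labels. Deviations of cultures from their group means correlated by over 0.1 in 126 of 126 pairs within a mouse at 24 h (lowest 0.367, median 0.800). At 48 h they did in 57 of 60 pairs of cultures within a culture set (lowest −0.452, median 0.823). These pairs lie within sets, so they do not test which sets share a mouse. Alternatives were each tool alone, DESeq2's size factors in edgeR, no low-count filter, no FPM minimum, other blocks or batches, and leaving out each mouse or set. Leaving out 1 control library at 48 h, a pseudocount of 1 FPM and the TATAAA motif were added after seeing the data.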

Additional observations from a re-analysis of the deposited data

Results flagged for a closer look

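In 13 of 130 groups of a gene, 1 culture lay far from the other cultures of its group, where chance gives about 1 in 20. The same mice and sets recur across the 130 groups, which are thus not independent, so no excess over chance can be read from the 13. Mouse 2 had the lowest Tnc, at 10.3 FPM in control and 12.7 FPM in AngII, and mouse 5 the highest with U46619 (739 FPM). Thbs1 was lowest in mouse 3 with EGF+U46619 (3150 FPM) and with EGF+AngII+U46619 (2067 FPM). Postn was lowest in mouse 4 with U46619, at 14.3 FPM.

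Has1 was highest in mouse 3, at 2.13 FPM in control, 22.6 FPM in EGF and 24.5 FPM in EGF+AngII, the mouse with the highest sum of mesothelial markers. After 48 h, set 1 stood out in Fn1 in U46619 (8141 FPM) and, in the EGF/AngII batch, in AngII (10399.8 FPM). Thbs2 was lowest in EGF in set 2 of the EGF/AngII batch (45.2 FPM), and Vcan highest in EGF+AngII in its set 6 (186.7 FPM).

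The change within a mouse or set differed between 24 and 48 h by an exact two-sided permutation test in 3 of 20 cases before adjustment and in 0 after it. Each set counted as independent in this test. The difference was 1.14 for Cd44 with U46619 and 1.14 for Cd44 with EGF+U46619, in both the larger increase after 24 h, and −1.63 for Thbs2 with EGF+U46619, lower after 24 h.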

How the results depend on the processing

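No change of direction was seen for any of the 10 genes in any comparison in which it was a DEG, under any alternative. Without the mouse (no replicate block), 2 of the 10 genes were DEG with U46619 after 24 h (7.14% of all genes) and 2 with EGF+U46619 (12.6%). With EGF+AngII+U46619 it was 3 (14.7%), and for EGF+U46619 against EGF 1 (0.723%). After 48 h it was 1 with U46619 (0.75%), 1 with EGF+U46619 (1.3%) and 1 for EGF+U46619 against EGF (0.688%). With the culture set as the replicate block, EGF+U46619 after 48 h gave 4, beside 14.9% of all genes. In the EGF/U46619 batch alone with that block, U46619 gave 4, EGF+U46619 5 and EGF+U46619 against EGF 5. The shares of all genes there were 21.4%, 25.9% and 13.9%. DESeq2 alone gave 1 with EGF and 4 with EGF+AngII after 24 h (1.86% and 9.12% of all genes).

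Leaving out each mouse gave 0 to 2 DEG among the 10 genes with EGF after 24 h (0% to 2.33% of all genes). It gave 0 to 4 with EGF+AngII (0% to 7.67%), 3 to 5 with U46619 (16.8% to 30.5%) and 4 to 6 with EGF+U46619 (23.5% to 33.4%). With EGF+AngII+U46619 it gave 5 to 6 (26.1% to 35.5%), and for EGF+U46619 against EGF 2 to 4 (5.0% to 18.1%). After 48 h, leaving out each culture set gave 2 to 2 with U46619 (0.998% to 5.07% of all genes) and 2 to 4 with EGF+U46619 (2.49% to 7.91%). It gave 1 to 3 for EGF+U46619 against EGF (1.6% to 4.76%). The other comparisons gave 0 to 0.

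Over all genes, DEG after 24 h without the mouse were 1037 with U46619 (3896 with it), 1826 with EGF+U46619 (4667) and 2141 with all 3 substances (4849), 0 with EGF (4) and with EGF+AngII (455), and 105 for EGF+U46619 against EGF (1869). DESeq2 alone gave 270 with EGF and 1325 with EGF+AngII after 24 h, 1 for EGF+U46619 against U46619 and 2 for the interaction, and no filter gave 127 with EGF. In the EGF/U46619 batch alone after 48 h, EGF gave 8 and EGF+U46619 against U46619 gave 1 (0 in both otherwise). After 48 h, U46619 gave 585 DEG, 109 without the mouse, 313 without the filter, 952 with DESeq2 alone, 1546 by culture set and 3108 in its batch alone. EGF+U46619 gave 995, 1.3% of all genes without the mouse (6.85% with it), 619 without the filter, 2170 by culture set and 3770 in its batch alone, and against EGF 699, 100, 401, 1097 with DESeq2 alone, 1906 and 2020. Without mouse 6, EGF gave 338 and EGF+AngII 1115, and without mouse 1, 2, 3 or 5 EGF+AngII gave 0. Without mouse 2, U46619 gave 2438 and EGF+U46619 against EGF 726. After 48 h, without set 3 of the EGF/U46619 batch, U46619 gave 145, EGF+U46619 362 and EGF+U46619 against EGF 233. The cause of these differences was not tested. The low counts of Has1 and Has2 limit both genes.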
